A study of Mus musculus with 2 samples.

Results

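The metallothionein genes *Mt1*, *Mt2* and *Mt3* were followed through 2 single-cell RNA-seq libraries of *Clec3b*-lineage reporter mice. They are 3 of the 32285 genes in the count matrices, taken by symbol. They were chosen on measured values, because their counts in these libraries differed between fibroblasts, osteoclasts and blood cell types and between the libraries. Their levels are therefore given as a description, with no test. Both libraries came from mice of the genotype Clec3b.creERT2; Ai14.R26.tdTomato, in which tamoxifen-activated Cre from the *Clec3b* locus switches on the red protein tdTomato for good. Tamoxifen was given 2 weeks before a stabilized fracture of the right femur, which was made at 6 weeks of age. Tissue from 3 littermates, described as male, was collected 3 weeks after surgery. The callus library held the pooled fracture calluses and the intact library the pooled intact femoral shafts with their muscle, so each condition was 1 library without a biological replicate.

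Metallothioneins are small cytosolic proteins rich in cysteine, whose thiol groups bind zinc and copper and can buffer cadmium and oxidants. MTF-1, a transcription factor that senses zinc, switches on *Mt1* and *Mt2* through metal response elements in their promoters, and glucocorticoids and cytokines of the interleukin-6 family also induce them. *Mt3* is known best from the brain and responds little to metals, and *Mt4* belongs to stratified epithelium.

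The 4 genes lie side by side on chromosome 8 of GRCm38, all on the forward strand. In the GENCODE annotation *Mt4* spans 94137197 to 94139031, *Mt3* 94152607 to 94154146, *Mt2* 94172664 to 94173568 and *Mt1* 94179082 to 94180327, which leaves 5513 bases between *Mt2* and *Mt1*. The 250 bases before the RefSeq transcript start are printed for the 3 members because *Mt1* and *Mt2* varied together from fibroblast to fibroblast, while *Mt3* was counted mainly in osteoclasts. They are read 5′ to 3′ from GRCm38.p6 at chr8:94178839-94179088 for *Mt1*, chr8:94172368-94172617 for *Mt2* and chr8:94152357-94152606 for *Mt3*. Capitals mark the metal response element core, searched as TGCACNC and TGCGCNC on both strands.
Mt1: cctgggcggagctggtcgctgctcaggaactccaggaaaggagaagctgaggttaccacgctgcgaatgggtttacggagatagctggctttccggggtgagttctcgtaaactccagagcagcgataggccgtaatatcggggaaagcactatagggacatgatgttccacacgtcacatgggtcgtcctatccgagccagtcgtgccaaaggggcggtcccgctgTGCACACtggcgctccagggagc
Mt2: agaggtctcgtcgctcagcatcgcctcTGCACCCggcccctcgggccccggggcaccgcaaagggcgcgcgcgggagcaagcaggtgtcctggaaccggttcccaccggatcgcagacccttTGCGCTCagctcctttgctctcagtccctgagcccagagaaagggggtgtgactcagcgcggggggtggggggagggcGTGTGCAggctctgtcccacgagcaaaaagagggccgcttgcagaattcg
Mt3: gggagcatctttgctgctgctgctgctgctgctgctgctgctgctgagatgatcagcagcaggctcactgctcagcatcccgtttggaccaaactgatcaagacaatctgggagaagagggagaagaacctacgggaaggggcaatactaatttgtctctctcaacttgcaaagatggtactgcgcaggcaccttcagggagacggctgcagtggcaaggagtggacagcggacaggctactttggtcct

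In the RefSeq window from 250 bases before the start to 50 after it, *Mt2* held 4 core matches and *Mt1* 3. The *Mt1* matches lay at -23 to -17, 3 to 9 and 21 to 27, counted from the start. Those of *Mt2* lay at -223 to -217, -128 to -122, -50 to -44 and 5 to 11, the last 2 on the reverse strand. *Mt3* held 1 match, at 28 to 34. Of 32851 promoter windows of this length, 25.7% held at least 1 core match, 1.97% at least 3 and 0.517% at least 4. The antioxidant response element TGACNNNGC, searched on both strands, was found once in the *Mt2* window and not in those of *Mt1* and *Mt3*, against 12.4% of all windows with a match. These letter matches describe the windows and say nothing about binding or about sites outside the windows. The RefSeq start used for *Mt2* lies before its GENCODE start at 94172664, and another start would give other matches.

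The coding sequences are printed without the stop codon because the members are close relatives, and the capitals mark the cysteine codons TGC and TGT. Each is spliced from 3 exons of the GENCODE transcript, chr8:94179311-94180190 for *Mt1*, chr8:94172848-94173424 for *Mt2* and chr8:94152800-94154007 for *Mt3*.
Mt1: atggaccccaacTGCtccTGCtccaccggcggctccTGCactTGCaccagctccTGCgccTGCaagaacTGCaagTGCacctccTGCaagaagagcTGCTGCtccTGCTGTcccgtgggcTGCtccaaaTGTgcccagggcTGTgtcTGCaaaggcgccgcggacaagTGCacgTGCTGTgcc
Mt2: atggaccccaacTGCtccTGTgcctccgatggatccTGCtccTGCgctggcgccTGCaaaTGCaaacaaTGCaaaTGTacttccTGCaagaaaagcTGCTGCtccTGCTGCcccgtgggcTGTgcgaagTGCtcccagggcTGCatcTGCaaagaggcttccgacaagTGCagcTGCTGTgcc
Mt3: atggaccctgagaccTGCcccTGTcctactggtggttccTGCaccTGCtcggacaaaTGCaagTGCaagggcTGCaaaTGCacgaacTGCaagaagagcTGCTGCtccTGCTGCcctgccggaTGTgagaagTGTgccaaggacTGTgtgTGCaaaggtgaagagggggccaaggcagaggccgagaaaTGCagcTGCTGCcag

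Cysteine codons made up 20 of the 61 codons of *Mt1* and of *Mt2*, and 20 of the 68 codons of *Mt3*. The coding sequences of *Mt1* and *Mt2* were identical at 79.2% of aligned bases, and that of *Mt3* at 68.4% with *Mt1* and 68.8% with *Mt2*. The assay reads transcripts near their 3′ end, where the last 150 bases of *Mt1* and *Mt2* were identical at 57.4% of aligned positions. No stretch of 30 bases was shared by any pair of the 3 transcripts. How the authors' counting treated reads that fit more than 1 of these paralogs is not given in the sources used here.

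A barcode was kept as a cell from 500 genes on, provided that mitochondrial genes gave no more than 10% of its UMIs (unique molecular identifiers, which count captured transcripts). This left 1207 of 1872 in the intact and 3295 of 3987 in the callus library, with median depths of 4939 and 6843 UMIs. The kept cells held 6117 intact and 9512 callus *Mt1* UMIs, 2588 and 2026 *Mt2* UMIs, 1 and 196 *Mt3* UMIs, and no *Mt4* UMI. Although the cells were sorted for tdTomato, 61.8% of intact and 75.6% of callus cells carried markers of blood cell types. The paper reports no meaningful tdTomato in its blood and endothelial populations, regards them as sorting artifacts and leaves them out. Such cells are kept here and are not taken as *Clec3b*-lineage cells. The fibroblasts numbered 281 and 207. *Xist*, the transcript of an inactive X chromosome, had a UMI in 89.7% and 94.7% of these fibroblasts, against the label male. The Y-linked genes *Ddx3y*, *Eif2s3y*, *Kdm5d* and *Uty* together had 1 UMI in all kept intact cells and 0 in all kept callus cells. The libraries shared 1 barcode. Cell types were gated on marker genes, a fibroblast on at least 60% of *Pdgfra*, *Dcn*, *Dpt*, *Lum*, *Col3a1* and *Clec3b*, and an osteoclast on at least 10 UMIs each of *Acp5* and *Ctsk*. Levels are given as CPM, the UMIs of a gene counted against 1e+06 UMIs of the cells in a group, and are not scaled by transcript length. Intervals are exact 95% intervals that cover counting error only, not the variation between cells or between mice.

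Among gated types of at least 6 cells, *Mt1* was highest in fibroblasts of both libraries, with 2349 CPM in the intact (2283 to 2417) and 1833 CPM in the callus library (1769 to 1899). In the intact library the 27 macrophages, which clear debris and carry C1q, reached 2331 CPM (2076 to 2608), an interval that overlaps that of the fibroblasts. The intact monocytes, dendritic cells and granulocyte-monocyte progenitors followed at 214, 207 and 186 CPM, and their intervals overlapped. In the callus library the order below the fibroblasts was osteoclasts at 1145 CPM (1036 to 1262) and macrophages at 757 CPM (693 to 826). Without the osteoclast of highest *Mt1* level the osteoclasts had 884 CPM (782 to 995). That overlaps the macrophage interval, so the order of these groups rests on 1 cell. Marrow stromal cells marked by *Lepr* and *Cxcl12* at 388 CPM, granulocyte-monocyte progenitors at 380 CPM and dendritic cells at 362 CPM came next and could not be ordered within their intervals. Osteoblasts had 158 CPM and monocytes 119 CPM in the callus. Low levels were counted in callus B-lineage cells at 39.1 CPM, mature neutrophils at 25.4 CPM, endothelial cells at 13.8 CPM, T cells at 11.3 CPM and NK cells at 4.56 CPM. In the intact library the mature neutrophils had 5.59 CPM. Callus plasmacytoid dendritic cells had no *Mt1* UMI in 46 cells, which allows up to 7.63 CPM.

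**Figure D1:**
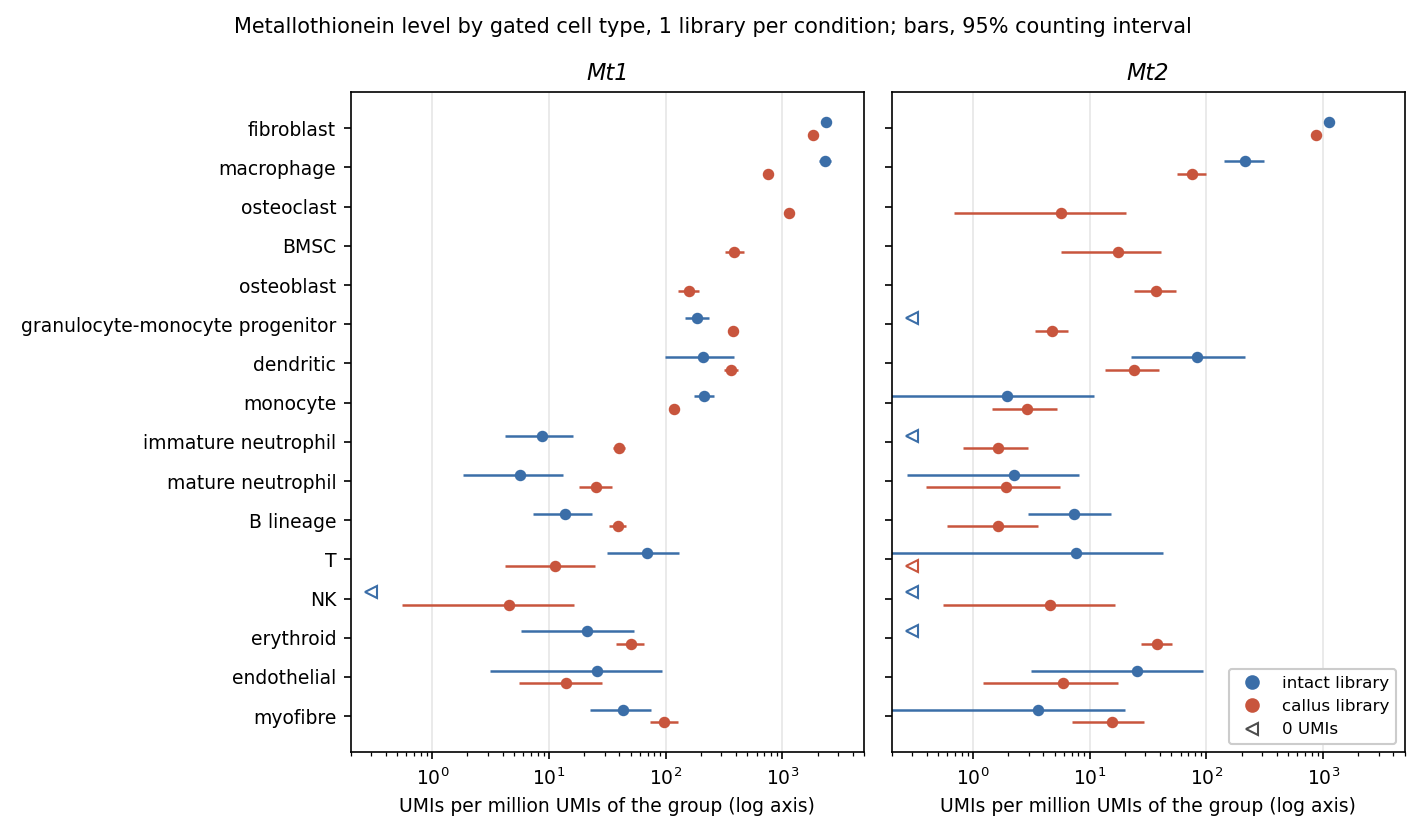
Level of *Mt1* (left) and *Mt2* (right) in gated cell types with at least 6 cells, in CPM on a log axis. Bars are exact 95% counting intervals, blue for the intact and red for the callus library. Plasma cells, plasmacytoid dendritic cells and the group of basophils, eosinophils and mast cells are not drawn. Triangles mark groups with 0 UMIs, and intervals may run past the left edge. *Mt1* lay at or above 1145 CPM in fibroblasts of both libraries, intact macrophages and callus osteoclasts, and *Mt2* at 871 CPM or above in fibroblasts alone among the groups drawn.

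The barcodes with under 500 genes, which were left out, had 5.02 intact and 21.9 callus CPM of *Mt1*. Small groups could rest on 1 cell. All 9 *Mt1* UMIs of the intact T cells came from 1 cell.

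The share of all *Mt1* UMIs that fibroblasts held was 77.6% in the intact library, where they had 26.9% of all UMIs. In the callus library they held 32.4% of *Mt1* with 4.91% of all UMIs. The 264 callus granulocyte-monocyte progenitors, the marrow cells that give rise to neutrophils and monocytes, held slightly more, 34.4% of callus *Mt1*, with 25.1% of all UMIs. Their median depth was 32344 UMIs, the deepest of these groups apart from the osteoclasts, and 83.7% of them had an *Mt1* UMI. When each cell was thinned to 2000 UMIs, that share was 40.5% (34.5 to 46.7), against 76.8% of callus fibroblasts (70.2 to 82.5) and 3.57% of callus T cells (0.743 to 10.1). The unthinned share of callus fibroblasts was 90.8% and that of callus T cells, at a median of 5434 UMIs, was 5.88%.

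*Mt2* was far more restricted than *Mt1*. It reached 1116 CPM in intact fibroblasts (1070 to 1163) and 871 CPM in callus fibroblasts (827 to 916). Fibroblasts held 87.1% of all its UMIs in the intact and 72.3% in the callus library. Mixed cells, set aside because they passed the fibroblast list and a non-stromal list, held 1.39% and 10.2%. Cells that passed no list held 9.04% and 6.32%. Intact macrophages came next among the gated types of at least 6 cells at 215 CPM (143 to 310), and callus macrophages had 51 UMIs, an interval of 55.8 to 98.6 CPM. Callus osteoblasts had 37.1 CPM and erythroid cells 37.7 CPM, the latter with 90.7% of their *Mt2* UMIs in the top 5% of cells. Callus granulocyte-monocyte progenitors, with 3270 *Mt1* UMIs, had 41 *Mt2* UMIs, or 4.76 CPM (3.42 to 6.46).

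The number of *Mt2* UMIs per 100 *Mt1* UMIs differed between the cell types and lay close in both libraries for fibroblasts and macrophages. It was 47.5 in intact (45.2 to 50.0) and 47.5 in callus fibroblasts (44.6 to 50.6). In macrophages it was 9.21 (6.02 to 13.6) in the intact and 9.90 (7.28 to 13.2) in the callus library. In the callus it was 2.46 in monocytes (1.22 to 4.45), 1.25 in granulocyte-monocyte progenitors (0.898 to 1.71) and 0.493 in osteoclasts (0.0595 to 1.79). These myeloid ratios all lay below the fibroblast intervals.

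**Figure D2:**
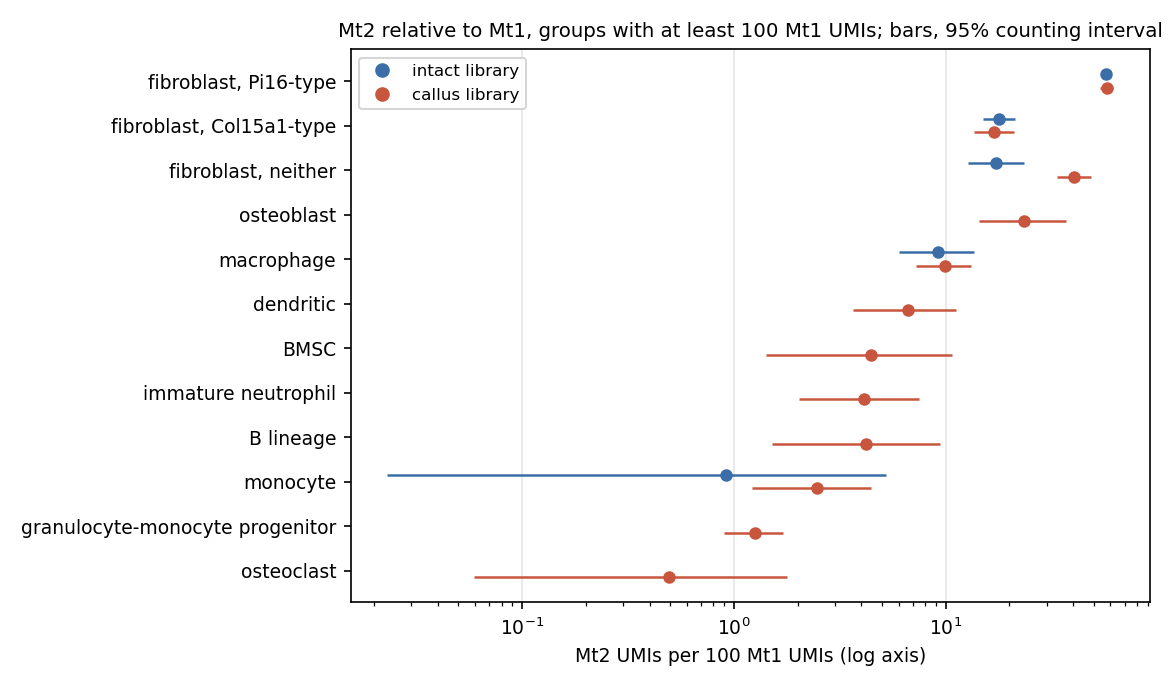
*Mt2* UMIs per 100 *Mt1* UMIs on a log axis, in cell types and fibroblast subtypes with at least 100 *Mt1* UMIs, with 95% counting intervals, blue for the intact and red for the callus library. Among the groups drawn the ratio ran from 57.1 and 57.7 in Pi16-type fibroblasts to 0.493 in callus osteoclasts. Taken over all cells of a group, the libraries lay close together in Pi16-type and Col15a1-type fibroblasts and in macrophages. They lay apart in fibroblasts of neither type, with 17.4 intact and 40.6 callus.

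Within the fibroblasts the ratio split the main subtypes. Pi16-type cells, adventitial fibroblasts marked by *Pi16*, *Dpp4*, *Sema3c*, *Fbn1* and *Anxa3*, numbered 220 in the intact and 146 in the callus library. Col15a1-type cells, parenchymal fibroblasts marked by *Col15a1*, *Smoc2*, *Cxcl14*, *Lpl* and *Hmcn2*, numbered 46 and 36. *Mt1* differed little between all cells of these subtypes, with 2269 CPM in Pi16-type and 2513 CPM in Col15a1-type cells of the intact library (log2 ratio -0.15, -0.26 to -0.04) and with 1811 and 1997 CPM in the callus (-0.14, -0.27 to -0.01). *Mt2* was 1295 CPM in Pi16-type and 449 CPM in Col15a1-type cells of the intact library, a log2 ratio of 1.53 (1.29 to 1.78). In the callus it was 1045 and 338 CPM, a log2 ratio of 1.63 (1.34 to 1.94). The subtypes held unequal shares of inflammatory cells, described next, 134 of 220 intact Pi16-type and 6 of 46 intact Col15a1-type cells. Among cells that were not inflammatory, a comparison added after the data were seen, *Mt1* was 981 CPM in Pi16-type and 2232 CPM in Col15a1-type cells of the intact library (log2 ratio -1.19, -1.36 to -1.01). In the callus it was 1182 and 1175 CPM (0.0089, -0.21 to 0.24). *Mt2* was higher in these Pi16-type cells by a log2 ratio of 0.60 (0.26 to 0.94) in the intact and 0.93 (0.52 to 1.34) in the callus library. Over all cells the *Mt2* per 100 *Mt1* UMIs were 57.1 and 57.7 in Pi16-type cells, and 17.9 and 16.9 in Col15a1-type cells. The parts of the Col15a1-type cells moved in opposite directions. In the few inflammatory ones it was 21.3 (15.1 to 29.4) intact and 10.3 (7.11 to 14.6) callus. In those that were not inflammatory it was 16.7 (13.5 to 20.5) and 26.2 (19.6 to 34.6).

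Single fibroblasts spanned a wide range. In the intact library a cell had between 0 and 154 *Mt1* UMIs with a median of 7, and the lower and upper quartiles of the cells were 249 and 2600 CPM. In the callus a cell had between 0 and 137 *Mt1* UMIs with a median of 6, with quartiles of 396 and 2183 CPM. The 5% of cells with the most *Mt1* UMIs, not scaled by depth, held 31.2% and 28.3% of the *Mt1* UMIs. Both genes were detected in 192 of the 281 intact fibroblasts, *Mt1* alone in 42, *Mt2* alone in 14 and neither in 33. In the callus these numbers were 143, 45, 5 and 14 of 207. Across cells of 1 library, which share the library and differ in depth, Pearson's r of *Mt1* with *Mt2* was 0.68 in the intact and 0.61 in the callus fibroblasts, and 0.56 and 0.53 after thinning. In callus macrophages it was 0.39 and in callus granulocyte-monocyte progenitors 0.28. *Mt3* had 2 UMIs in 1 callus fibroblast and none in the intact ones.

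Both genes were higher in inflammatory Pi16-type fibroblasts, those with at least 2 of *Ptx3*, *Has1* and *Tnfaip6*, than in the other Pi16-type cells. The 134 intact inflammatory cells had 2800 CPM of *Mt1* and the 86 others 981 CPM, a log2 ratio of 1.51 (1.37 to 1.66). The 81 inflammatory cells of the callus had 2163 CPM and the 65 others 1182 CPM, a log2 ratio of 0.87 (0.72 to 1.02). For *Mt2* the log2 ratios were 1.5 (1.32 to 1.70) and 1.16 (0.95 to 1.37), from 1597 against 563 CPM in the intact library and from 1303 against 585 CPM in the callus. At least 2-fold higher were thus 2 of the 2 measured members in the intact library, where 4.61% of 7569 genes were, and 1 of 2 in the callus, where 4.36% of 6760 genes were. The direction for *Mt1* was not particular to the Pi16 type. All Col15a1-type cells together had 2513 intact and 1997 callus CPM of *Mt1*. Without their 6 intact and 9 callus inflammatory cells the levels were 2232 and 1175 CPM. *Mt2* was likewise lower without these cells, at 373 against 449 CPM in the intact and 308 against 338 CPM in the callus library. The inflammatory Col15a1-type cells held only 46 and 36 *Mt2* UMIs.

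The inflammatory Pi16-type cells were also deeper than the other Pi16-type cells. Their median was 8458 against 4856 UMIs in the intact and 9133 against 5651 UMIs in the callus library. A deeper cell more readily shows 2 of 3 markers. With the markers read after thinning each cell to 2000 UMIs, the log2 ratio of *Mt1* was 1.28 in the intact and 1.26 in the callus library. When all 3 markers were required it was 0.95 and 1.19, and that of *Mt2* 0.998 and 1.51. Which members pass 2-fold therefore depends on the marker rule. The share of all genes that passes was not computed for the rule of all 3 markers.

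**Figure D3:**
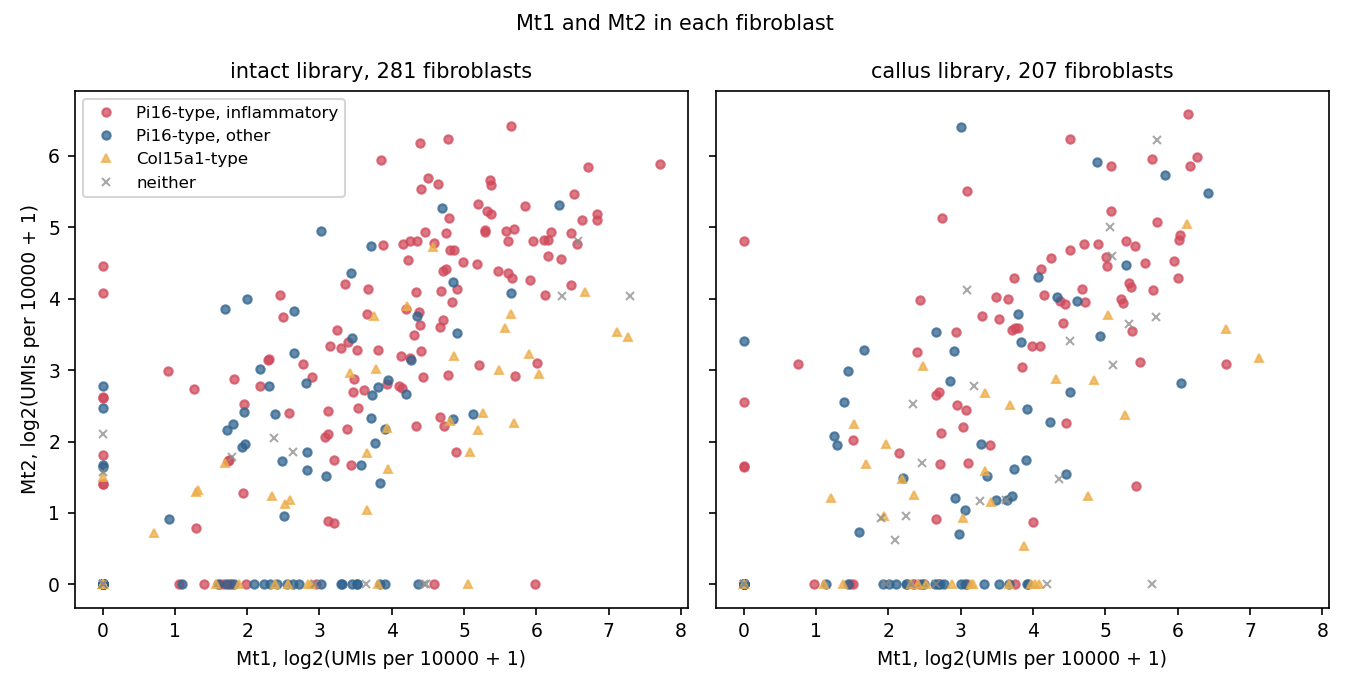
Each point is 1 fibroblast, with *Mt1* on the horizontal and *Mt2* on the vertical axis, both as log2(UMIs per 10000 UMIs of the cell + 1), for the intact library (left, 281 cells) and the callus library (right, 207 cells). Inflammatory Pi16-type cells (red) fill the upper right of both panels, and Col15a1-type cells (orange) lie low on the *Mt2* axis at a given *Mt1*.

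The genes that followed the sum of *Mt1* and *Mt2* most closely from fibroblast to fibroblast overlapped between the libraries. Among 6620 genes detected in at least 10% of fibroblasts of both libraries, the 5 with the highest Pearson's r over the intact cells were *Junb* (0.60), *Atf3* (0.55), *Zfp36* (0.55), *Socs3* (0.53) and *Nfkbia* (0.53). *Junb* and *Atf3* encode transcription factors, *Zfp36* a protein that speeds mRNA decay, and *Socs3* and *Nfkbia* inhibitors of cytokine and NF-κB signalling. Over the callus cells the 5 were *Junb* (0.62), *Zfp36* (0.60), *Nfkbiz* (0.58), *Egr1* (0.56) and *Socs3* (0.56). After thinning, the r of these 7 genes was between 0.25 (*Nfkbiz*) and 0.51 (*Junb*) in the intact and between 0.35 (*Nfkbia*) and 0.54 (*Zfp36*) in the callus library. Across the 25 cell type and library groups with at least 20 cells, *Mt1* was most like *Abca9* (r = 0.89 on log2(CPM + 10) over groups) and *Lrp1* (0.87), and *Mt2* most like *Ahnak2* (0.92) and *Creb5* (0.91). The r of *Mt1* with *Mt2* over these groups was 0.80.

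The listed genes of early response and heat shock, which tissue digestion also induces, stood higher in the inflammatory Pi16-type cells beside the metallothioneins. Of the 16 measured, 11 were at least 2-fold higher in the intact library with a median log2 ratio of 1.19, against a median of -0.04 over all genes, and 8 in the callus with a median of 1.00 against -0.02. In the intact library *Junb* stood at 1.71, *Atf3* at 1.71 and *Egr1* at 1.39, and *Hspa1a*, a heat shock gene, at -0.47. Glucocorticoid-induced genes reached 2-fold in 5 of 10 in the intact and 2 of 10 in the callus library, with *Nfkbia* at 2.43 and 2.13 and *Errfi1* at 1.66 and 0.69. *Per1* stood at 1.28 in the intact and 0.16 in the callus library, *Tsc22d3* at -0.55 and 0.018, and *Fkbp5* at -0.28 and -0.35. Over all genes the shares at least 2-fold higher were 4.61% and 4.36%. Of interleukin-6 and STAT3 genes 5 of 7 and 3 of 8 were at least 2-fold higher. *Il6* stood at 6.73 in the intact library (258 against 1 UMIs) and 3.01 in the callus. *Bcl3* stood at 3.81 (34 against 1 UMIs) and 1.75, *Socs3* at 1.41 and 1.32, and *Il6st* at -0.11 and -0.06. Of NRF2 and glutathione genes 3 of 9 and 1 of 7 were at least 2-fold higher, and of hypoxia genes 0 of 6 and 1 of 6. The part of cell handling in the metallothionein difference was not tested.

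Over all genes, 4.61% in the intact and 4.36% in the callus library were at least 2-fold higher in the inflammatory Pi16-type cells. The short lists of genes that move zinc are given beside these shares and not read as a result. Of 8 measured zinc importers in the intact and 7 in the callus library none was at least 2-fold higher in inflammatory cells, and of 4 zinc exporters 1 was in the intact library, *Slc30a4* at 1.01 (39 against 8 UMIs). Copper handling genes had a median log2 ratio of -0.02 in the intact and 0.06 in the callus library. *Slc30a1*, the zinc exporter that MTF-1 switches on with the metallothioneins, had 17 against 2 UMIs in the intact and 5 against 0 in the callus library, too few for the limit of 20 UMIs. *Mtf1* itself had 18.3 CPM in intact (12.9 to 25.2) and 15.5 CPM in callus fibroblasts (10.1 to 22.6).

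Set against the intact library, the callus fibroblasts had less of both genes, by the same factor. The log2 ratio was -0.36 for *Mt1* (-0.42 to -0.29) and -0.36 for *Mt2* (-0.45 to -0.26), each 1.28-fold lower. Neither of the 2 measured members passed 2-fold, where 4.41% of 9967 genes were at least 2-fold higher and 2.86% at least 2-fold lower, and the median over all genes was 0.02. When every cell weighed the same the log2 ratios were -0.27 and -0.054. With equal weights of the subtypes they were -0.37 and -0.28. Inflammatory Pi16-type cells, the fibroblasts with the most *Mt2*, made up 47.7% of intact (41.7 to 53.7) and 39.1% of callus fibroblasts (32.4 to 46.1).

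The fibroblast groups did not all point the same way. In inflammatory Pi16-type cells the log2 ratio of *Mt1* was -0.37 (-0.46 to -0.28) and in Col15a1-type cells -0.33 (-0.49 to -0.18). In the Col15a1-type cells that were not inflammatory, 40 intact and 27 callus cells, it was -0.93 (-1.14 to -0.71). In the other Pi16-type cells it was 0.27 (0.08 to 0.46). Fibroblasts of neither type, 15 and 25 cells, had -0.82 for *Mt1* (-1.04 to -0.60) and 0.40 for *Mt2* (-0.05 to 0.88). After thinning to 2000 UMIs, 76.2% of intact (70.6 to 81.3) and 76.8% of callus fibroblasts (70.2 to 82.5) had an *Mt1* UMI, so the share of positive cells was not distinguishable at this depth.

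**Figure D4:**
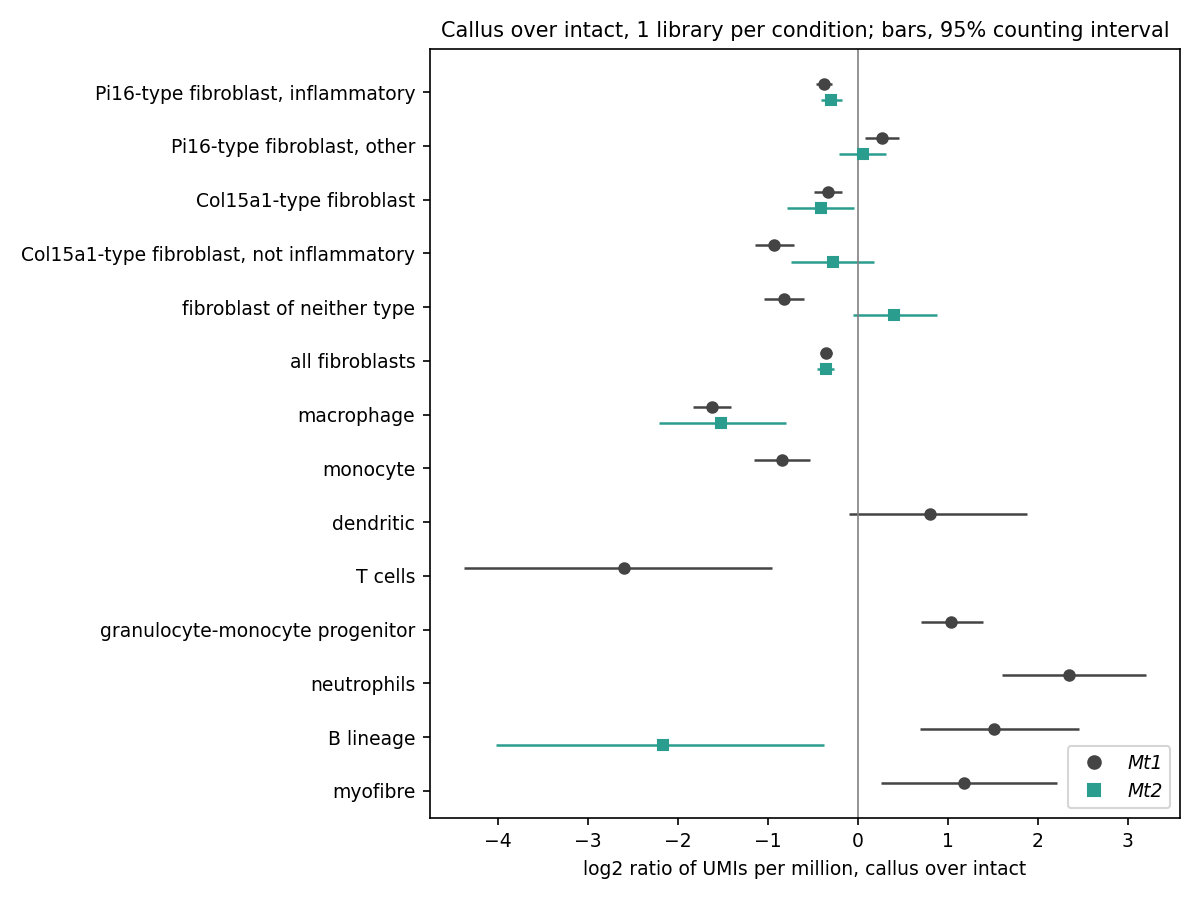
Log2 ratio of CPM, callus over intact, for *Mt1* (circles) and *Mt2* (squares) in cell types and fibroblast subtypes where both libraries had at least 5 UMIs, with 95% counting intervals from 1 library per condition. *Mt1* lies left of 0 in fibroblasts, macrophages and monocytes and furthest left in T cells, which had 6 and 9 UMIs. It lies right of 0 in the other Pi16-type fibroblasts, granulocyte-monocyte progenitors, neutrophils, B-lineage cells and myofibres, and its interval includes 0 in dendritic cells.

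The zinc exporter, zinc importer, copper and iron lists of the callus fibroblasts had median log2 ratios of -0.08, -0.14, -0.15 and 0.04. Over all genes the median was 0.02, with 4.41% at least 2-fold higher and 2.86% at least 2-fold lower. Of 6 measured zinc exporters none was at least 2-fold higher and 1 at least 2-fold lower, *Slc30a1* at -1.25 (7 callus against 20 intact UMIs). None of 8 zinc importers passed 2-fold, with *Slc39a14*, a zinc and iron importer, at 0.72 and *Slc39a6* at -0.44. None of 9 copper genes passed 2-fold, with *Cox17*, a copper chaperone, at -0.57. Of 10 iron handling genes 2 were at least 2-fold higher and 1 lower, with *Slc40a1*, the iron exporter, at 1.34 (19 against 9 UMIs) and *Hmox1*, which breaks down haem, at -1.09 (16 against 41 UMIs). Of the 16 early response and heat shock genes none passed 2-fold, and *Ier2* stood at -0.95 and *Dnajb1* at -0.83. Glucocorticoid-induced genes had a median of -0.22, with 1 of 12 in each direction. Interleukin-6 and STAT3 genes went the other way from *Mt1* and *Mt2*, with a median of 0.34 and 8 of 9 above 0. Of these, 1 was at least 2-fold higher, *Timp1* at 1.92 (79 against 25 UMIs), and 0 were at least 2-fold lower.

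Only fibroblasts, macrophages and monocytes had over 100 *Mt1* UMIs in each library among the gated cell types. Of these the macrophages had the lowest callus over intact ratio of *Mt1*. *Mt1* stood at 2331 CPM in the 27 intact and 757 CPM in the 111 callus macrophages, 3.08-fold lower (log2 ratio -1.62, -1.83 to -1.41). *Mt2* had 28 intact and 51 callus UMIs and was 2.86-fold lower (-1.52, -2.21 to -0.80). The 2 measured members were both at least 2-fold lower, where 6.86% of 5294 genes were. In single cells the median *Mt1* level was 2435 CPM in the intact and 565 CPM in the callus macrophages, and 26 of 27 and 86 of 111 had a UMI. When every cell weighed the same the log2 ratios were -1.37 and -0.53.

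All 5 macrophage markers were detected in the macrophages of both libraries, with a summed level of 10574 intact and 9468 callus CPM. *C1qa* stood at 3681 and 3256 CPM, *Mrc1*, the mannose receptor, at 1403 and 763 CPM and *Adgre1*, which encodes F4/80, at 222 and 343 CPM. Neutrophil markers summed to 199 CPM in intact and 551 CPM in callus macrophages, and their part in the *Mt1* difference was not tested. Fibroblast markers summed to 23.0 CPM in intact and 17.6 CPM in callus macrophages, against 20311 and 28758 CPM in the fibroblasts themselves. Early response and heat shock genes moved with the metallothioneins here too. Of 15 measured, 4 were at least 2-fold lower in the callus and the median log2 ratio was -0.68. *Hspa1b* stood at -2.51, *Hspa1a* at -1.74 and *Egr1* at -1.49. Over all 5294 genes 6.86% were at least 2-fold lower and the median was 0.08. Glucocorticoid-induced genes had 3 of 9 lower and a median of -0.72, with *Fkbp5* at -1.38 and *Sgk1* at 1.83. Interleukin-6 and STAT3 genes had 2 of 5 lower and a median of -0.71, with *Il6st* at -1.94 and *Cebpb* at 0.54. The part of handling stress in the macrophage difference was not tested. Copper handling genes went the other way, with 5 of 8 at least 2-fold higher in the callus, where 12.8% of 5294 genes were. Of these 5, *Atox1*, a copper chaperone, at 1.05 and *Sod1*, a copper enzyme, at 1.08 had over 3 UMIs in the intact library, and they are named after their values were seen.

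In the other blood lineages compared here *Mt1* was lower than in the macrophages of the same library, and the libraries differed in both directions. Granulocyte-monocyte progenitors had 186 CPM in 15 intact and 380 CPM in 264 callus cells, a log2 ratio of 1.03 (0.70 to 1.39). Their share of cells with an *Mt1* UMI after thinning was 40.0% and 40.5%. Monocytes had 214 and 119 CPM (-0.85, -1.15 to -0.53), but the top 5% of the 56 intact monocytes held 79.8% of their *Mt1* UMIs. Neutrophils of both maturation stages had 7.35 CPM in the intact and 37.3 CPM in the callus library, from 15 and 308 UMIs, a log2 ratio of 2.34 (1.60 to 3.20). In neutrophils 30.4% of 9332 genes were at least 2-fold higher in the callus and the median over all genes was 0.51, beside a summed level of the 6 neutrophil markers of 382903 intact and 292830 callus CPM. The part of those abundant transcripts in the *Mt1* ratio was not tested.

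The neutrophil ratio was 1.15 with clusters in place of marker gates. After thinning, 3.21% of callus neutrophils and 2.39% of callus B-lineage cells had an *Mt1* UMI, against 3.57% of callus T cells. The wide interval of the T cell share, given above, holds both values, so these shares cannot be told apart from it. The part of background in these counts was not tested. B-lineage cells had 13.7 intact and 39.1 callus CPM (1.51, 0.69 to 2.46), where 10.3% of 9612 genes were at least 2-fold higher, and 94.4% of the callus UMIs lay in the top 5% of cells. Their log2 ratio was 0.75 when every cell weighed the same. T cells had a log2 ratio of -2.60 (-4.37 to -0.95) from 6 callus and 9 intact UMIs, all of the latter in 1 cell. Dendritic cells had 0.80 (-0.10 to 1.88). The low-gene barcodes left out of the cells had likewise more *Mt1* in the callus, 21.9 against 5.02 CPM, and its part in the ratios of cells with little *Mt1* was not tested. *Mt2* in B-lineage cells rested on 7 intact and 6 callus UMIs.

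In the callus most *Mt3* UMIs lay in osteoclasts, the multinucleate cells that resorb bone, and unevenly among them. All 11 osteoclasts were from the callus, with a median of 35072 UMIs and between 7116 and 56252. They carried *Acp5*, *Ctsk*, *Mmp9* and *Atp6v0d2*, the last a subunit of the proton pump, in every cell, and 0 of the 6 fibroblast markers had a UMI. Of the other osteoclast markers, *Ocstamp* had a UMI in 81.8%, *Dcstamp* in 72.7%, *Oscar* in 63.6% and *Itgb3* in 27.3% of the cells. The cells of 8901 and 35072 UMIs had none of these 4, and few UMIs of the gating genes, 30 *Acp5* and 10 *Ctsk* in the first and 44 and 27 in the other. Both were without *Mt3*. The 11 osteoclasts together held 157 of the 196 callus *Mt3* UMIs, or 80.1%, at 443 CPM (376 to 518). In order of rising depth the cells had 36, 0, 34, 1, 1, 0, 0, 5, 5, 14 and 61 *Mt3* UMIs. Thus 8 of 11 had the transcript and 3 of them had more *Mt3* than *Mt1*, among them the shallowest and the deepest cell. Outside the osteoclasts 23 cells had 40 *Mt3* UMIs, with at most 9 in a cell, a callus macrophage. Callus macrophages had 16.2 CPM of *Mt3*, and the log2 ratio of osteoclasts over them was 4.77 (3.90 to 5.81).

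Every osteoclast also had *Mt1*. The counts in the same order were 6, 4, 14, 16, 48, 39, 12, 36, 132, 64 and 35 UMIs, between 301 and 2954 CPM with a median of 843. *Mt1* was higher in callus fibroblasts than in osteoclasts by a log2 ratio of 0.68 (0.53 to 0.83), and higher in osteoclasts than in callus macrophages by 0.60 (0.40 to 0.79). The order of osteoclasts and macrophages rested on the osteoclast of highest level, without which their intervals overlapped. *Mt2* had 2 UMIs in all osteoclasts together, 5.64 CPM, and callus fibroblasts exceeded it by a log2 ratio of 7.27 (5.42 to 10.3). Summed over the cells of each group, the main family member beside *Mt1* thus differed between the cell types. Callus fibroblasts had 47.5 *Mt2* and 0.0648 *Mt3* UMIs per 100 *Mt1*, and osteoclasts 0.493 *Mt2* and 38.7 *Mt3*. Most of that osteoclast *Mt3* lay in the cells with 36, 34 and 61 *Mt3* UMIs.

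**Figure D5:**
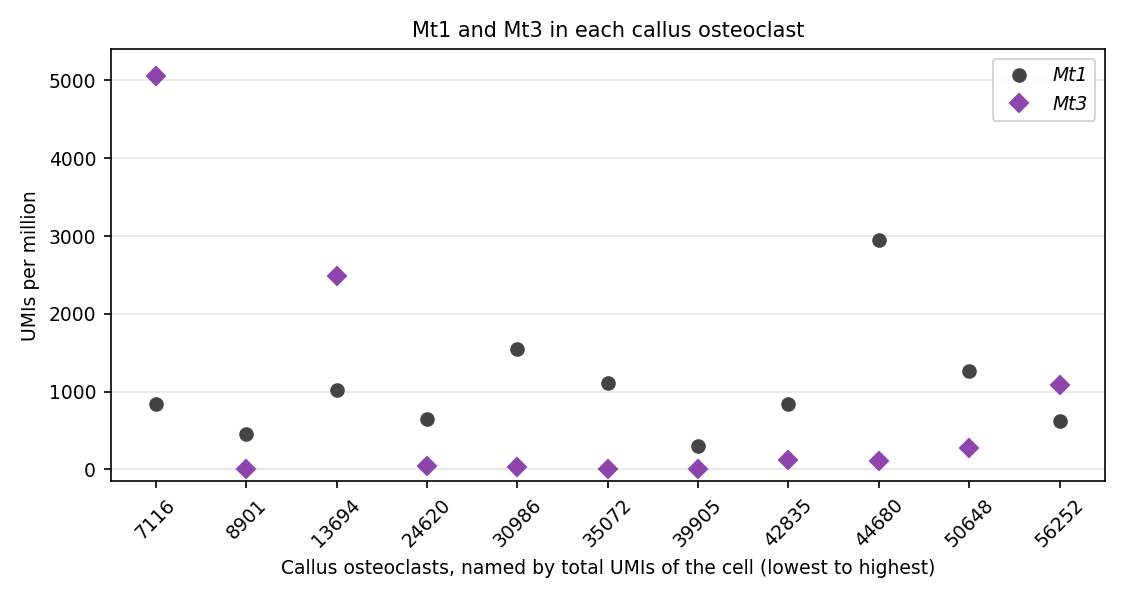
*Mt1* (circles) and *Mt3* (diamonds) in each of the 11 callus osteoclasts in CPM of the cell, with the cells named on the horizontal axis by their total UMIs from lowest to highest. *Mt1* lies between 301 and 2954 CPM in all of them, and *Mt3* between 0 and 5059 CPM, above *Mt1* in 3 cells.

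With the 5% of osteoclasts of highest level left out, which is 1 cell, the levels were 884 CPM for *Mt1* and 348 CPM for *Mt3*. With a minimum of 1000 genes and a mitochondrial limit of 5%, *Mt3* stood at 208 CPM. That limit leaves out the cells of 7116, 24620, 50648 and 56252 UMIs, with 8.64%, 5.89%, 6.31% and 7.06% mitochondrial UMIs. Among them are the cells with 36 and 61 *Mt3* UMIs. As the mean over the cells of the reported filter *Mt3* was 837 CPM. In osteoclasts *Mtf1* had 28.2 CPM (13.5 to 51.8) and *Slc30a1* 22.6 CPM (9.74 to 44.4).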

How the data were processed

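Femoral tissue was digested with collagenase and tdTomato-positive cells were sorted and run as 10x Chromium 3′ libraries. Per the labels the build was mm10, and per the file headers Cell Ranger 6.0.0 made the matrices. The authors deposited raw UMI counts, without normalization. The annotation of their reference and the doublet treatment are not given in the sources used here. Total deposited counts were 12112002 intact and 36714322 callus UMIs.

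From these counts, cells were filtered, gated on marker lists (a list's share of at least 60%, myofibres also by 5% of UMIs; cells passing the fibroblast list and a non-stromal list were set aside as mixed) and summed per type and library. A gene entered a comparison with at least 20 UMIs over both groups, and a group at 0 was set to 3 counts for fold limits. Poisson, Clopper-Pearson and conditional ratio intervals were exact at 95%. With 1 library per condition no test between conditions was made. Named genes were the members, *Mt4*, at most the 3 highest and 3 lowest of each fixed list, and the 5 genes most like the members by Pearson's r. The members and lists were chosen with earlier results of these data known. Alternatives were other cell filters, clusters, gates, doublet removal, weights, thinning and scaling, and 10 were added after the data were seen. The fold counts were tested on simulated data that held counting error only, so the test does not cover variation between cells or mice. Python 3.11.15, numpy 2.4.6, scipy 1.17.1, pandas 2.3.3, scanpy 1.11.5 and matplotlib 3.10.9 were used. Promoters are from RefSeq, GRCm38.p6, with all 3 members matched, and coding sequences from GENCODE. No barcode was removed as a doublet in the reported values.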

Additional observations from a re-analysis of the deposited data

Results flagged for a closer look

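The level of *Mt1* differed between the libraries in opposite directions from cell type to cell type, which is what drew attention here. As log2 ratio of callus over intact it was -0.36 in fibroblasts, -1.62 in macrophages and -0.85 in monocytes. It was 1.03 in granulocyte-monocyte progenitors, 2.34 in neutrophils and 1.51 in B-lineage cells. In T cells it was -2.60, from 6 callus and 9 intact UMIs. After thinning, the shares of callus neutrophils and B-lineage cells with *Mt1* could not be told apart from that of callus T cells, whose interval is wide. That comparison decides nothing about the ratios of neutrophils and B-lineage cells, which are not read as a change. The part of background in them was not tested. Each value comes from 1 library per condition, and the difference between cell types was not tested.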

How the results depend on the processing

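No paired analysis was possible because each condition was 1 library, both labelled replicate 1. Alternatives gave 179 values for 21 results. Among those that are log2 ratios none turned its direction, while levels, shares and gene counts have no direction to turn. Of the 179 values 140 stayed inside the reported counting interval or within 1.5 times a reported gene count, and 39 did not. The cause was not tested. In fibroblasts *Mt1* callus over intact (log2) was -0.49 with clusters, -0.27 as the mean over cells and -0.25 without the 5% highest cells, and *Mt2* was -0.054 as the mean over cells. *Mt1* in neutrophils was 1.15 with clusters. In osteoclasts *Mt1* was 1319 CPM and the fibroblast-over-osteoclast log2 ratio 0.50 with a minimum of 1000 genes and a mitochondrial limit of 5%, and *Mt1* was 884 CPM without the highest cell. The share of fibroblasts with an *Mt1* UMI, intact and callus, was 62.0% and 62.3% thinned to 1000 UMIs, 58.2% and 54.1% counted from 2 UMIs, and 83.3% and 90.8% unthinned. Genes at least 2-fold higher and lower in callus fibroblasts, 440 and 285 as reported, were 105 and 57 with at least 100 UMIs and 995 and 740 for every gene with a UMI, and those higher were 733 with clusters. Of alternatives chosen after seeing the data, macrophage means over cells gave -1.37 for *Mt1* and -0.53 for *Mt2*. Inflammatory over other Pi16-type *Mt1* was 1.78 intact as the mean over cells, 1.68 intact and 1.27 callus without the 5% highest cells, 1.28 and 1.26 with thinned markers, 0.95 and 1.19 with all 3 markers, and 1.04 in the callus with clusters. For *Mt2* these were 1.94 intact, 1.96 and 1.44, 1.19 intact, 0.998 and 1.51, and 1.45 in the callus. Osteoclast *Mt3* was 208 CPM with the stricter cell filter, 837 CPM as the mean over cells and 348 CPM without the highest cell. No cluster was named osteoclast, and neutrophils and B-lineage cells of the intact library had no member UMI left without the 5% highest cells, so these gave no value. Scrublet called 3 intact and 4 callus cells, so its highest 12 and 87 scores were left out instead.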
